A study of Homo sapiens with 6 samples.

Results

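Messenger RNA levels of 7 genes of the RAS, RAF, MEK and ERK cascade were examined in thyroid carcinoma cells with and without an SK4 plasmid. The genes were NRAS and HRAS (RAS GTPases), ARAF and BRAF (RAF kinases), MAP2K1 and MAP2K2 (the kinases MEK1 and MEK2) and MAPK3 (the kinase ERK1). They were chosen by name, as the rows of the deposited table with these symbols, and are 7 of its 32896 genes. The other RAS, RAF and ERK genes were not analysed here. In this cascade an active RAS GTPase at the membrane recruits RAF, RAF phosphorylates MEK, and MEK phosphorylates ERK, which acts on kinases and transcription factors. Signalling runs through GTP loading, phosphorylation and feedback, none of which is read by RNA levels. In thyroid carcinoma the cascade is known for activating mutations of BRAF and of RAS genes, and BHT101 is known to carry an activating BRAF mutation. Gene-level values do not separate mutant from wild-type transcripts.

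RNA-seq was carried out on BHT101, an established human line from an anaplastic thyroid carcinoma, grown in serum. All cells were transfected by lipid reagent with plasmid DNA and harvested after 48 h. The control group (NC) received a control plasmid, with 3 libraries, and the SK4 group received a plasmid for overexpression of SK4, with 3 libraries. SK4 is the calcium-activated potassium channel KCa3.1, encoded by KCNN4, and the series asked which genes and splicing events lie downstream of it. All libraries are of a single cell line, and the transfection was transient. For control replicate 3 the treatment field names BHT102 where its other labels have BHT101, and the library was kept among the controls. No label tells whether separate cultures gave the 3 libraries of a group, so the p-values cover no more than library-to-library spread, which may be technical.

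Levels are FPKM, fragments scaled by gene length and by the mapped fragments of the library. Levels of different genes are set side by side here, but such comparisons depend on the length used for each gene. The libraries held an estimated 29700000 to 38500000 fragments, with control replicate 3 the shallowest. KCNN4 was at 8.36 ± 0.138 FPKM with the control plasmid and 167 ± 18.3 FPKM with SK4 (SD, n = 3 each; limma adjusted p = 8.83e-07), so the overexpressed gene was high in the libraries labelled SK4. The carcinoma keratin genes KRT8, KRT18 and KRT19 lay between 124.1 and 258.5 FPKM in single libraries. The other epithelial markers listed, EPCAM and CDH1, were far lower, with EPCAM at 12.7, 12.4 and 10.4 FPKM in control replicates 1 to 3. The thyroid follicular markers TG, TSHR and PAX8 stayed below 1 FPKM in every library. The endothelial markers (4 of 4), the fibroblast markers (5 of 5) and the leukocyte markers PTPRC and CD3E also stayed below 1 FPKM. The leukocyte markers CD14, ITGAM and CD68 lay between 1.02 and 4.43 FPKM.

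Of the 7 genes, 6 could be tested. None of these was called (limma adjusted p below 0.05), a call made for 0.00898% of all tested genes. For all 7 the SK4 values overlapped the control values, where 5.34% of tested genes had groups without overlap. Their levels spanned from 0.38 FPKM (BRAF) to 39.4 FPKM (MAP2K2), and the differences between plasmids were far smaller than the differences between genes, as the plot of levels by gene shows. Testing was limited to the 11139 genes that reached 1 FPKM in 3 or more libraries, which took in 6 of the 7. BRAF lay below that level in every library.

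**Figure D1:**
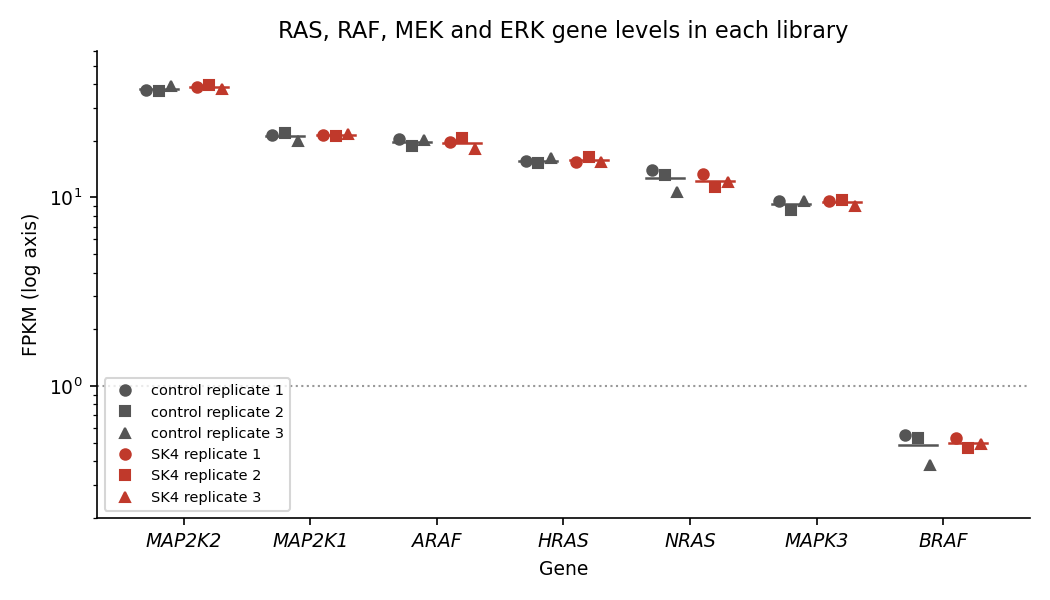
Level of each of the 7 genes in FPKM on a log axis, in order of mean level, with 1 point per library (grey for control, red for SK4, shape for replicate) and a bar at each group's mean. The dotted line marks 1 FPKM: BRAF lies below it in all 6 libraries, MAP2K2 is the highest gene, and the groups overlap for every gene.

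The RAS genes encode small GTPases that switch the cascade on. NRAS (ENSG00000213281; chromosome 1, 114704469 to 114716894, minus strand, GRCh38) held 14.1, 13.2 and 10.7 FPKM in control replicates 1 to 3 and 13.3, 11.4 and 12.02 FPKM in SK4 replicates 1 to 3. All 3 SK4 values lay inside the control range. The fitted fold was 0.973 (95% interval 0.819 to 1.16; log2 fold change -0.039, SE 0.11; limma adjusted p = 0.99997). NRAS was the most variable of the tested members. Its spread within groups was larger than that of 86.2% of the 1936 tested genes within 1.5-fold of its level. Its control replicate 3 was the lowest value and control replicate 1 the highest.

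HRAS (ENSG00000174775; chromosome 11, 532242 to 537287, minus strand, GRCh38) was steadier. It held 15.6, 15.2 and 16.3 FPKM with the control plasmid and 15.5, 16.4 and 15.4 FPKM with SK4. Its highest values were in SK4 replicate 2 and control replicate 3, where NRAS was lowest. The fold was 1.003 (95% interval 0.926 to 1.09; log2 fold change 0.0047, SE 0.049; limma adjusted p = 0.99997). LRRC56, which lies 240 bp away on the opposite strand, was at 0.54 to 0.85 FPKM.

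NRAS was below HRAS in all 6 libraries. The NRAS to HRAS ratio was 0.901, 0.868 and 0.654 in the control libraries, in order, and 0.860, 0.691 and 0.783 in those with SK4. With lengths of the longest transcripts the mean ratio would be 0.527 in place of 0.793. The spread of this ratio lay within the groups rather than between them. On the log2 scale the difference NRAS minus HRAS was -0.31 ± 0.24 with the control plasmid and -0.35 ± 0.15 in the SK4 libraries (SD, n = 3 each). An exact two-sided permutation test gave p = 0.8 (adjusted p = 0.9 over the 3 paralogue pairs compared). With 3 against 3 libraries that test cannot go below 0.1.

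The low NRAS values fell in libraries where GC-poor genes as a whole were low. The longest annotated NRAS transcript is 38.4% GC, in the GC-poorest quartile of the tested genes (23.1% to 43.0%), and that of HRAS is 65.8% GC, in the GC-richest quartile (57.3% to 85.5%). NRAS stood 0.21 below its own 6-library mean in control replicate 3 (centred log2 value -0.21) and had -0.12 in SK4 replicate 2. The median gene of the GC-poorest quartile stood at -0.20 and -0.12 in the same libraries. For the GC-richest quartile the medians there were 0.0080 and 0.038, beside 0.050 and 0.062 for HRAS. When the median of its GC quartile was subtracted in each library, the range of NRAS over the 6 libraries went from 0.38 to 0.19 on the log2 scale, with control replicate 1 then highest and SK4 replicate 3 lowest. The part of GC content in the NRAS values was not otherwise tested.

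**Figure D2:**
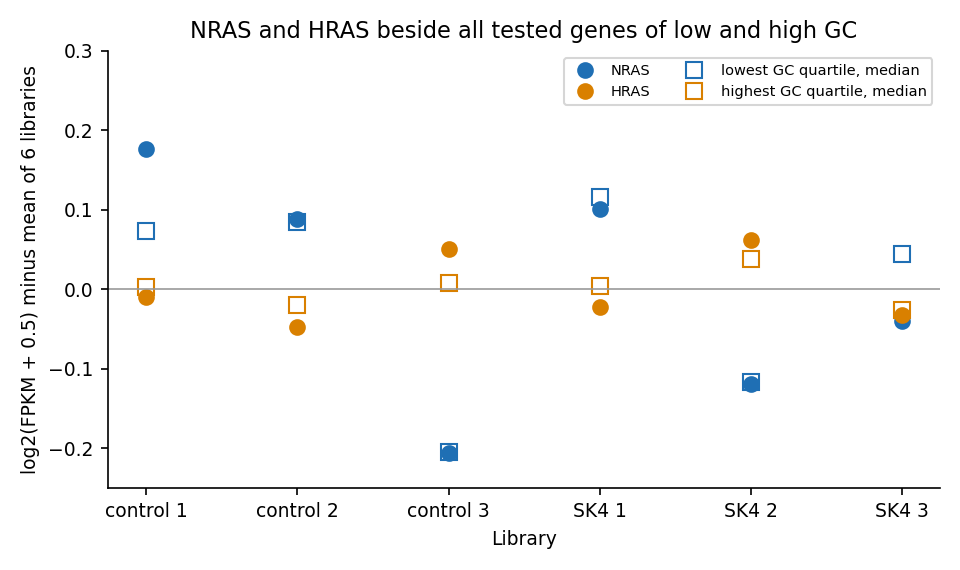
Level of NRAS and HRAS in each library as log2(FPKM + 0.5) minus the gene's mean over the 6 libraries (filled circles), beside the median of all tested genes in the GC-poorest and the GC-richest quartile (open squares). NRAS and the GC-poor quartile are both lowest in control replicate 3 and SK4 replicate 2, while HRAS and the GC-rich quartile stay within 0.1 of their means in all 6 libraries.

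The RAF genes encode the kinases that bind active RAS. ARAF (ENSG00000078061; chromosome X, 47561100 to 47571920, plus strand, GRCh38) held 20.5, 18.7 and 20.1 FPKM with the control plasmid and 19.7, 20.8 and 18.1 FPKM with SK4. The SK4 group held both the highest and the lowest value. The fold was 0.987 (95% interval 0.892 to 1.09; log2 fold change -0.019, SE 0.062; limma adjusted p = 0.99997). ARAF overlaps SYN1, a gene on the opposite strand, by 23 bases of exon. SYN1 lay at 2.06 to 2.46 FPKM.

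BRAF (ENSG00000157764; chromosome 7, 140719327 to 140924928, minus strand, GRCh38), the RAF gene that is most often mutated in thyroid cancer, was the lowest member. It held 0.55, 0.53 and 0.38 FPKM with the control plasmid and 0.53, 0.47 and 0.49 FPKM with SK4. The SK4 values lay inside the control range, and control replicate 3 was lowest, as for NRAS. The longest BRAF transcript is also GC-poor, at 40.03% GC. MAP2K1, at 50.4% GC, was likewise lowest in control replicate 3. Any part of GC content in the BRAF values was not tested. In a fit without a filter on low values, over all 32896 genes, the BRAF fold was 1.01 (95% interval 0.858 to 1.2; limma adjusted p = 1). That fold is on the log2(FPKM + 0.5) scale, where the added 0.5 is as large as BRAF itself, so it understates any change. An estimated 264 to 478 fragments per library lay behind the BRAF values, against 2114 to 2699 for ARAF. For BRAF, counting error by itself amounts to a coefficient of variation between 4.57% and 6.15%.

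The BRAF level depends on how its length and its neighbour were treated. Low values of multi-exon genes were whole fragments (within 0.2) for 80.6% of values when the summed length of all annotated exons was used, and for 46.0% with the length of the longest transcript, where 40% would come out whole at random. For BRAF all exons sum to 23432 nt in GENCODE release 29, against 9578 nt for the longest transcript. If every fragment came from that transcript, BRAF would lie at 0.930 to 1.35 FPKM, still the lowest of the 7. BRAF also overlaps NDUFB2, a respiratory chain gene on the opposite strand, by 1239 bases of exon, and NDUFB2 lay at 35.2 to 38.3 FPKM. The libraries kept the strand, but whether the authors' counting used it is not given in the sources used here, so reads of NDUFB2 in the BRAF value cannot be told apart. The pseudogene BRAFP1 lay at 0.02 FPKM or below.

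ARAF was higher than BRAF by 35.3 to 53.0 times in single libraries. On the log2(FPKM + 0.5) scale, where the added 0.5 shrinks the difference from a gene as low as BRAF, ARAF minus BRAF was 4.36 ± 0.17 with the control plasmid and 4.33 ± 0.11 in the SK4 libraries (SD, n = 3 each; exact two-sided permutation p = 0.7, adjusted p = 0.9 over the 3 pairs). With lengths of the longest transcripts the mean ratio over the 6 libraries would be 23.5 in place of 40.6.

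The MEK genes encode the dual-specificity kinases that phosphorylate ERK, and with the deposited lengths they were the members with the highest levels. MAP2K1 (ENSG00000169032; chromosome 15, 66386817 to 66492312, plus strand, GRCh38) held 21.5, 21.9 and 19.8 FPKM with the control plasmid and 21.3, 21.1 and 21.8 FPKM with SK4. The SK4 values lay inside the control range. The fold was 1.02 (95% interval 0.938 to 1.1; log2 fold change 0.022, SE 0.049; limma adjusted p = 0.99997). MAP2K1 overlaps SNAPC5 and the antisense gene AC116913.1 on the opposite strand, by 216 and 432 bases of exon. These lay at 7.75 to 9.18 FPKM and 1.38 to 1.67 FPKM.

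MAP2K2 (ENSG00000126934; chromosome 19, 4090321 to 4124129, minus strand, GRCh38) held 37.2, 36.5 and 39.0 FPKM with the control plasmid and 38.8, 39.4 and 37.5 FPKM with SK4. The highest value was SK4 replicate 2, but control replicate 3 was the next, so the groups overlapped. The fold was 1.03 (95% interval 0.960 to 1.1; log2 fold change 0.037, SE 0.041; limma adjusted p = 0.99997). This was the smallest p of the 6 tested members. Its level was above that of 89.8% of the tested genes.

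MAP2K2 exceeded MAP2K1 in all 6 libraries, by 1.67 to 1.97 times. With lengths of the longest transcripts the mean ratio would be 2.91. That transcript has only 4 exons for MAP2K2, against 11 for MAP2K1, and whether it is the main MAP2K2 transcript was not tested. The log2 difference MAP2K2 minus MAP2K1 was 0.82 ± 0.12 with the control plasmid and 0.83 ± 0.061 in the SK4 libraries (SD, n = 3 each; exact two-sided permutation p = 0.9, adjusted p = 0.9 over the 3 pairs). Added together, the MEK genes held 58.7, 58.4 and 58.9 FPKM with the control plasmid and 60.1, 60.5 and 59.3 FPKM with SK4. These sums did not overlap, though neither gene's values were apart alone. The mean sum was 2.23% higher in the SK4 libraries (58.7 ± 0.226 against 59.97 ± 0.605 FPKM; SD, n = 3 each). By exact two-sided permutation p was 0.1, which is as low as it can go (adjusted p = 0.3 over the 3 pair sums). Single tested genes were apart in 5.34% of cases, and the sums were formed after the values were seen. With each library scaled to the same median gene, the MEK sums overlapped (58.9 ± 2.56 and 59.7 ± 1.48 FPKM; exact two-sided permutation p = 0.6). The sums of NRAS and HRAS (28.3 ± 1.35 and 28.0 ± 0.714 FPKM) and of ARAF and BRAF (20.3 ± 0.899 and 20.02 ± 1.34 FPKM) overlapped as deposited.

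**Figure D3:**
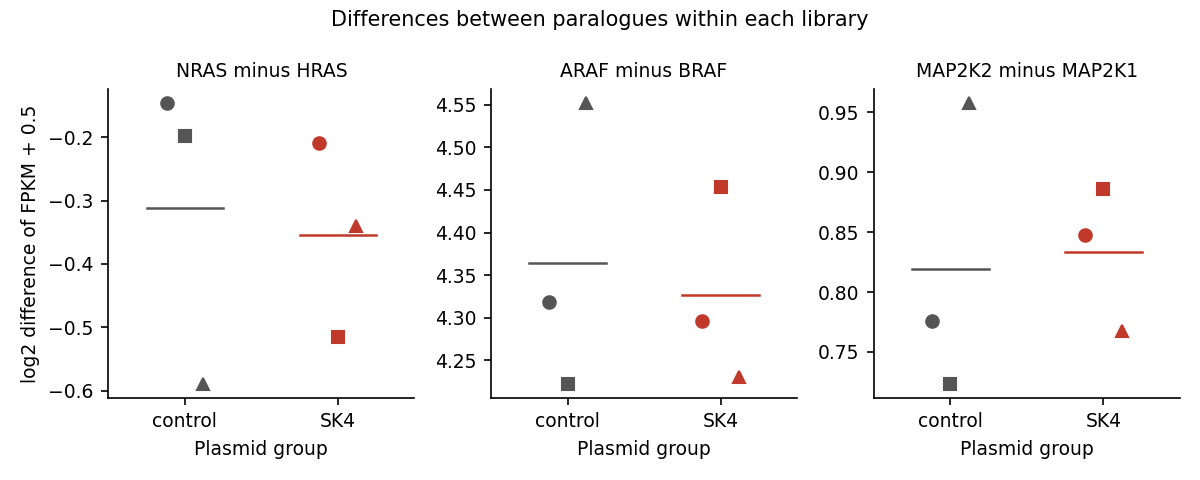
Difference in log2(FPKM + 0.5) between paralogues in each library, for NRAS minus HRAS, ARAF minus BRAF and MAP2K2 minus MAP2K1, each panel on its own axis, with bars at the group means and replicates 1, 2 and 3 as circles, squares and triangles. The groups overlap in each panel, and control replicate 3 is the extreme control value in all 3 panels.

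Upstream sequence is shown for MAP2K2, HRAS and MAP2K1, the members with the lowest coefficients of variation over the 6 libraries (3.05%, 3.28% and 3.55%). Windows of 250 bases before the RefSeq start (GRCh38.p14) were matched for all 7 members, and the part of each window free of GENCODE release 29 exons is printed, on the strand of the gene and read 5′ to 3′. The HRAS window lies between exons of the longer GENCODE gene. For NRAS only 18 such bases remained, and none are shown. The MAP2K1 stretch is the whole of the gap between MAP2K1 and TIPIN, a replication fork gene read in the opposite direction, which lay at 3.38 to 4.6 FPKM. Capitals mark the GC box (GGGCGG), the ETS core (CCGGAAG), the CCAAT box (CCAAT), the E-box (CACGTG) and the core of the cAMP response element (TGACG), each searched on both strands.
MAP2K2, chr19:4124130-4124372, minus strand: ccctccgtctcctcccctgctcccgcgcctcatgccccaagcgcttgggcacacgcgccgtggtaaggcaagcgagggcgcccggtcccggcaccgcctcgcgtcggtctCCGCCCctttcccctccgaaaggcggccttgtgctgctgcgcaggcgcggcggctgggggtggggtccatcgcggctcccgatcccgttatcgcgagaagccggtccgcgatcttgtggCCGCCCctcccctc
HRAS, chr11:535577-535826, minus strand: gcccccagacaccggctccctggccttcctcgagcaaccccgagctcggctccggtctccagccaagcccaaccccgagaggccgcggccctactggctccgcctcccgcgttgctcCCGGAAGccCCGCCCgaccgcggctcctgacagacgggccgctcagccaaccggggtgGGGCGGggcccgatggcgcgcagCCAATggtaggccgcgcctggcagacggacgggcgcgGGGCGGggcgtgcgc
MAP2K1, chr15:66386747-66386816, plus strand: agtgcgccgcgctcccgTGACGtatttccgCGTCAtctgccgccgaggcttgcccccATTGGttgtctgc

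The MAP2K2 stretch of 243 bases held 2 GC boxes and none of the other motifs, and stretches at the same place held a GC box in 41.8% of 35116 RefSeq promoters. The HRAS stretch held 3 GC boxes, 1 ETS core and 1 CCAAT box, which were present in 42.6%, 8.52% and 32.0% of windows of that length. The MAP2K1 stretch of 70 bases held 2 cAMP response cores and 1 CCAAT box, present in 5.72% and 10.7% of stretches of that length and place, and no GC box, which was in 17.2%. These stretches were 73.7%, 77.2% and 65.7% GC, where the median 250-base window was 58% GC. A match describes the letters only.

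MAPK3 (ENSG00000102882; chromosome 16, 30114105 to 30123506, minus strand, GRCh38) encodes ERK1, the last kinase of the cascade. It held 9.53, 8.53 and 9.59 FPKM with the control plasmid and 9.54, 9.73 and 9.0 FPKM with SK4. Control replicate 2 was the lowest and SK4 replicate 2 the highest, and the other 4 values lay between. The fold was 1.02 (95% interval 0.923 to 1.13; log2 fold change 0.032, SE 0.063; limma adjusted p = 0.99997). GDPD3, the nearest gene on the same strand, lay at 0.26 to 0.57 FPKM.

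Counts of calls among the members are set beside those of the whole table. Of the 11139 tested genes, 0.00898% were called at an adjusted p below 0.05 (KCNN4 alone), and 0 of the 6 tested members were (limma). At an unadjusted p below 0.05 the share was 1.65% of all tested genes and 0 of the 6 members. None of the 7 was apart between groups, against 5.34% of tested genes (3.53% with SK4 above and 1.81% with SK4 below). The median log2 fold change of the 6 members was 0.014 and that of all tested genes 0.011. Their 95% intervals say how large a difference the data leave room for: all 6 lay inside 1.25-fold in either direction, as did 74% of all tested genes. Within 1.15-fold lay 5 of the 6, and 36.6% of all tested genes. The intervals of HRAS, MAP2K1 and MAP2K2 lay inside 1.1-fold, as did 12.9% of all tested genes. A p that misses the threshold does not show that the levels were equal.

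**Figure D4:**
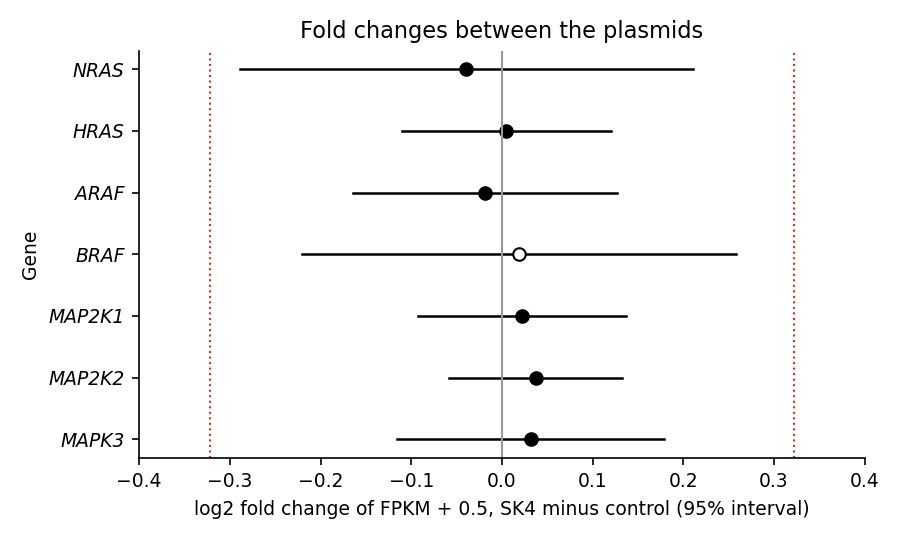
Fitted log2 fold change, SK4 minus control, with its 95% interval for each member (limma on log2(FPKM + 0.5)), with BRAF from the fit without a filter on low values as an open circle. All intervals include 0 and lie inside the dotted lines at 1.25-fold, and the NRAS and BRAF intervals are the widest. For BRAF the added 0.5 is as large as the level itself, so its interval understates any change in FPKM.

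The order of mean level was MAP2K2, MAP2K1, ARAF, HRAS, NRAS, MAPK3 and BRAF. Most neighbours in that order kept their places in all 6 libraries, without overlap of their ranges. MAP2K1 and ARAF overlapped (19.8 to 21.9 and 18.1 to 20.8 FPKM), and MAP2K1 was the higher in 5 of 6 libraries. The order in the middle depends on the gene length used. Scaled to the longest transcript, the means would be 68.1 FPKM for MAP2K2, 27.7 for ARAF, 23.6 for HRAS, 23.4 for MAP2K1, 13.3 for MAPK3, 12.4 for NRAS and 1.2 for BRAF. The MAP2K2 value rests on a transcript of only 4 exons. The highest and the lowest gene stayed in place, and NRAS and MAPK3 changed places.

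Genes with the most similar profile over the 6 libraries were found for each tested member as the smallest root mean square difference between centred log2 values, among genes with a spread within 1.5 times its own. These were CPNE3 for NRAS (0.016), GRINA for HRAS (0.0046), CES2 for ARAF (0.017), VDAC1 for MAP2K1 (0.0094), RNF187 for MAP2K2 (0.0077) and FMNL1 for MAPK3 (0.016). CPNE3, a copine gene, held 3.95, 3.75 and 2.88 FPKM with the control plasmid and 3.83, 3.17 and 3.37 FPKM with SK4, with its lowest values in the same 2 libraries as NRAS. The median candidate differed from its member by 0.054 to 0.098. A close profile among 2961 to 4192 candidates over 6 libraries is a description only.

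Genes around the cascade, among them genes of other MAPK branches and RAS-like GTPases, were counted in 11 lists, with 117 genes in the table and 92 tested. Of the 92, 0 were called (limma, adjusted p = 0.99997 for each), against 0.00898% of all tested genes. Only 1, DUSP1, had an unadjusted limma p below 0.05 (1.09%, against 1.65% of all tested genes). There were 63 positive and 29 negative fold changes with a median log2 fold change of 0.018, where 57.9% of all tested genes were positive. With each library scaled to the same median gene, 53 were positive and 39 negative, beside 49.4% positive among all tested genes. Single libraries also decided the sign of most list medians. When each library was left out in turn, the sign changed for 8 of the 11 lists. It held for exchange factors and adaptors (of which no exchange factor gene was tested), lipid processing and the other MEK genes. The groups were apart for 6 of the 92 (6.52%, against 5.34% of all tested genes), on the values as deposited. The median centred log2 value of all tested genes was -0.071 in control replicate 3 and 0.038 in SK4 replicate 1. Whether single genes stayed apart with each library scaled to the same median gene was not tested. The 95% interval lay inside 1.25-fold for 79 and inside 1.5-fold for all 92, as it did for 74% and 96.8% of all tested genes. None of the shifts in the lists below passed the test.

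Upstream of RAS, 4 of 13 exchange factor and adaptor genes were tested, all with positive fold changes (median log2 fold change 0.023). These were GRB2, SHC1, PTPN11 and FRS2, and none of the exchange factor genes of the list was tested. The adaptor gene SHC1 was the most abundant at 44.5 ± 1.13 FPKM with the control plasmid and 45.1 ± 0.875 FPKM with SK4, and FRS2, a docking protein gene, had the smallest p (1.17 ± 0.221 and 1.32 ± 0.153 FPKM, SD, n = 3 each). The exchange factor gene SOS1, which loads RAS with GTP, was below the tested level in most libraries (0.76 to 1.13 FPKM). Of 13 genes for GTPase-activating proteins and SPRED proteins, which turn RAS off, 6 were tested, with 1 positive and 5 negative (median -0.024), and with each library scaled to the same median gene all 6 were negative. RASA3 was the most abundant and the positive member, at 6.78 ± 0.437 and 6.78 ± 0.31 FPKM. SPRED2, an inhibitor of RAF activation, had the smallest p (4.53 ± 0.268 and 4.10 ± 0.300 FPKM, SD, n = 3 each), and its groups overlapped. NF1, the neurofibromin gene, was at 0.64 to 0.82 FPKM and was not tested.

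All 9 genes for the lipid processing and trafficking of RAS were tested, and all 9 had positive fold changes (median 0.026), or 7 of 9 with each library scaled to the same median gene. FNTB, a subunit of the farnesyltransferase that attaches the lipid anchor to RAS, held 2.29, 2.22 and 2.22 FPKM with the control plasmid and 2.48, 2.44 and 2.57 FPKM with SK4, so its groups were apart (log2 fold change 0.13, limma adjusted p = 0.99997). ZDHHC9, a palmitoyltransferase gene for HRAS and NRAS, was also apart as deposited, at 25.1 ± 0.761 and 26.4 ± 0.607 FPKM (SD, n = 3 each). It is named because it is the other of the 2 genes of the list that were, where 5.34% of all tested genes were apart. LYPLA2, a thioesterase gene, was the most abundant at 46.0 ± 1.67 and 46.4 ± 1.86 FPKM. Among 8 tested genes of RAS-like GTPases all 8 were positive (median 0.045), or 5 of 8 with that scaling, with RRAS at 33.4 ± 2.02 and 35.8 ± 1.78 FPKM (SD, n = 3 each) and RHEB, an activator of mTORC1, at 85.3 ± 7.65 and 85.2 ± 2.94 FPKM.

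Around RAF, 16 of 17 regulator and chaperone genes were tested, 10 positive and 6 negative (median 0.0076), or 7 and 9 with the libraries scaled to the same median gene (median -0.0038). HSP90AB1, a chaperone gene on which RAF kinases depend, was at 542.4 ± 34.8 and 544.3 ± 7.53 FPKM. PEBP1, the gene of the RAF kinase inhibitor protein, was at 175.3 ± 5.23 and 169.9 ± 5.22 FPKM (SD, n = 3 each). SFN, a gene of the adaptor family that holds RAF inactive, was at 114.6 ± 1.97 and 117.3 ± 3.09 FPKM (SD, n = 3 each). All 8 scaffold genes of MEK and ERK in the table were tested, with 6 positive (median 0.042). PEA15, which keeps ERK in the cytoplasm, was at 72.4 ± 0.342 and 74.7 ± 2.31 FPKM (SD, n = 3 each), and WDR83 at 3.46 ± 0.253 and 3.38 ± 0.325 FPKM.

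The MEK genes of the other MAPK branches were lower than MAP2K1 and MAP2K2. MAP2K3, an activator of p38 kinases, held 16.6, 16.2 and 16.9 FPKM with the control plasmid and 17.2, 17.8 and 18.1 FPKM with SK4. As deposited, all SK4 values were above all control values, but the gene was not called (log2 fold change 0.091, limma adjusted p = 0.99997). MAP2K7, an activator of JNK kinases, was apart in the same direction at 9.02 ± 0.0379 and 9.58 ± 0.264 FPKM (SD, n = 3 each). Of all tested genes, 5.34% were apart, and 3.53% with SK4 above. MAP2K4 (2.52 ± 0.644 and 2.47 ± 0.271 FPKM) and MAP2K5 (3.97 ± 0.0794 and 3.97 ± 0.224 FPKM) overlapped, and MAP2K6 lay at 0.17 to 0.24 FPKM. Of the 4 tested genes, 2 had positive and 2 negative log2 fold changes (MAP2K4 -0.0055 and MAP2K5 -0.0021), with a median of 0.041.

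Of the other MAPK genes, only MAPK11, a p38 gene, had a higher mean level than MAPK3, at 15.4 ± 0.640 and 14.5 ± 0.817 FPKM (SD, n = 3 each). MAPK12 and MAPK14 lay between 5.53 and 6.79 FPKM. MAPK6, MAPK7, MAPK8 and MAPK9 lay between 1.42 and 3.91 FPKM. MAPK13 held 1.90, 1.90 and 2.05 FPKM with the control plasmid and 1.68, 1.77 and 1.82 FPKM with SK4, so its groups were apart with SK4 below (log2 fold change -0.12, limma adjusted p = 0.99997). MAPK10 and MAPK15 were at 0.29 FPKM or below. Of the 8 tested, 4 were positive and 4 negative (median -0.011).

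Downstream of ERK, 12 of 16 substrate genes were tested, 8 positive and 4 negative (median 0.019). ERF, a repressor that ERK exports from the nucleus, was at 25.3 ± 1.08 and 26.1 ± 1.22 FPKM, the kinase gene MKNK1 at 2.52 ± 0.0700 and 2.65 ± 0.0557 FPKM, and the repressor gene CIC at 3.93 ± 0.182 and 3.79 ± 0.263 FPKM. All 10 phosphatase genes that act on ERK were tested, 6 positive and 4 negative (median 0.024). DUSP1, a nuclear phosphatase of MAP kinases, held 28.8, 28.9 and 28.1 FPKM with the control plasmid and 33.6, 31.1 and 31.4 FPKM with SK4. Its groups were apart, and it was the single gene of all lists with an unadjusted p below 0.05 (log2 fold change 0.16, limma adjusted p = 0.99997). DUSP5, a nuclear ERK phosphatase, was the most abundant at 66.9 ± 4.94 and 72.0 ± 2.79 FPKM with overlapping groups (SD, n = 3 each). DUSP2 was at 6.63 ± 0.410 and 6.01 ± 0.432 FPKM (SD, n = 3 each).

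Genes whose transcription ERK activity is known to induce were tested for 9 of 10, with 6 positive and 3 negative (median 0.018), and the groups overlapped for all 9. EPHA2, a receptor kinase gene, was the most abundant at 32.9 ± 0.833 and 34.1 ± 1.48 FPKM (SD, n = 3 each). SPRY4, a feedback inhibitor gene, was at 5.64 ± 0.276 and 5.38 ± 0.180 FPKM (SD, n = 3 each). The others ranged in log2 fold change from -0.034 (CCND1) to 0.054 (SPRY2), and all 9 intervals lay inside 1.25-fold. EPHA4 lay at 0.02 to 0.05 FPKM.

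**Figure D5:**
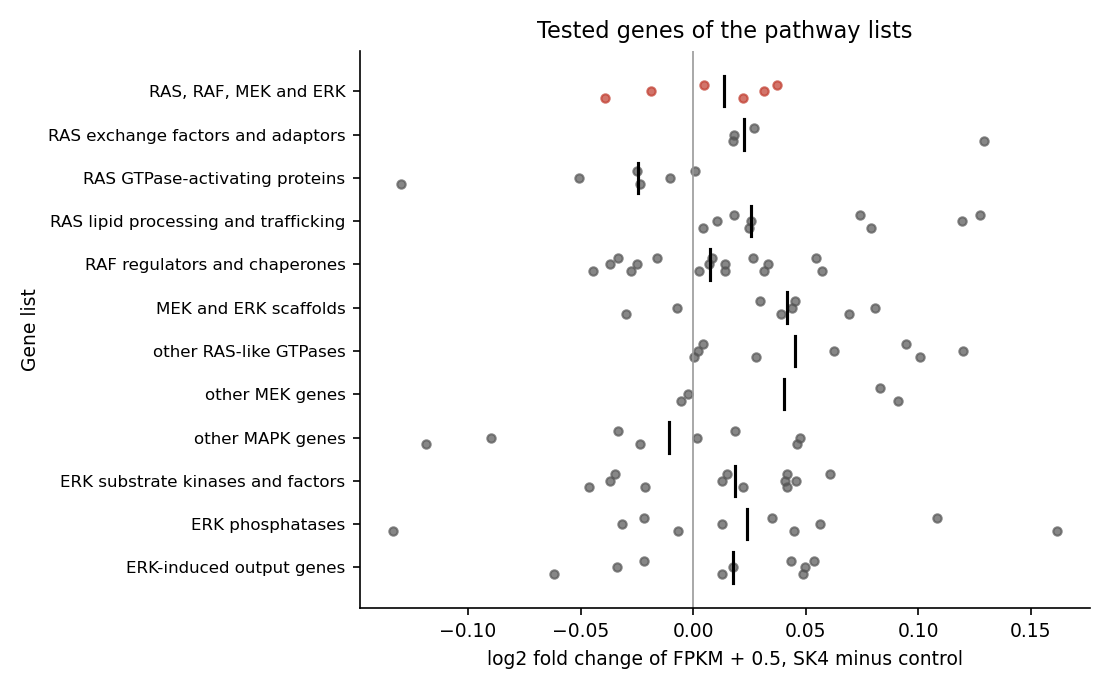
Log2 fold change, SK4 minus control, of each tested gene in the 7-gene cascade (red) and in the 11 pathway lists (grey), with a black bar at each list's median. The members lie between -0.039 and 0.037, and the widest values of the lists are those of DUSP1 (0.16) and DUSP2 (-0.13).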

How the data were processed

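Per the submitters' processing notes, HISAT2 and GRCh38 were used. Versions, counting tool and annotation are not given in the sources used here. FPKM values, with 2 decimals and 1 column per library, were deposited by the authors as a single table. Depth was estimated from single-exon genes of short length (561 genes), whose low values are multiples of what 1 fragment is worth. Coefficients of variation from fragment numbers cover counting error only. Values were taken as log2(FPKM + 0.5), which understates changes of low genes. Genes reaching 1 FPKM in 3 or more libraries were fitted with limma 3.58.1 (R 4.3.3), with a trended, robust prior and group as the only term, and p-values were adjusted by Benjamini-Hochberg over all tested genes. The fit was tested on simulated data. Exact permutation tests used scipy 1.17.1. The members and lists were chosen with earlier results of these data known. Named genes were the members, KCNN4, in each list the gene of smallest p in each direction and the most abundant, the other MEK and MAPK genes, the nearest profiles and neighbouring genes within 2000 bp, of which some are not reported here; other genes were chosen after their values were seen. Coordinates and GC came from GENCODE release 29 on GRCh38, and 99.3% of tested genes had a GC value. The deposited identifiers of the members and KCNN4 all carry later version numbers than release 29, so the authors' annotation was not that release. Lengths, GC and exon overlaps given here may therefore differ from theirs. Alternatives changed the pseudocount, filter, scaling, library weights, prior, replicate block and libraries.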

Additional observations from a re-analysis of the deposited data

How the results depend on the processing

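None of the 6 tested members was called under any alternative that gave a p, and KCNN4 was called under each of these. The GC subtraction gave no p, and BRAF was fitted once, without a filter. MAP2K2 kept a positive fold change throughout, but small log2 fold changes of the others changed sign. With each library scaled to the same median, HRAS had -0.0067, after quantile normalization -0.0015, and minus the median of genes of like GC content -0.0035. Leaving out each library in turn gave -0.15 to 0.039 for NRAS, -0.025 to 0.031 for HRAS, -0.063 to 0.034 for ARAF, -0.020 to 0.050 for MAP2K1, 0.017 to 0.064 for MAP2K2 and -0.020 to 0.063 for MAPK3. The NRAS value furthest from 0 was without control replicate 3. For the paralogue differences it gave -0.18 to 0.039 (NRAS minus HRAS), -0.11 to 0.056 (ARAF minus BRAF) and -0.033 to 0.084 (MAP2K2 minus MAP2K1). Without control replicate 3 and SK4 replicate 2, chosen after seeing the data, MAP2K1 had -0.0095, and 3 genes were called higher and 1 lower, none of them a member. The causes were not tested.

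Leaving out each library kept the sign of the list median for exchange factors and adaptors (0.013 to 0.076), lipid processing (0.010 to 0.081) and the other MEK genes (0.046 to 0.087). No exchange factor gene was among the tested genes of the first of these lists. The sign of the other 8 medians changed with the library left out: -0.086 to 0.0094 for GTPase-activating proteins, -0.046 to 0.028 for RAF regulators, -0.0045 to 0.052 for scaffolds, -0.028 to 0.086 for RAS-like GTPases, -0.072 to 0.047 for the other MAPK genes, -0.0018 to 0.043 for ERK substrates, -0.0090 to 0.045 for ERK phosphatases and -0.034 to 0.043 for ERK-induced genes. Without a filter on low values, which adds MAP2K6, the MEK median was -0.0021. The GC subtraction, the rescaling to the longest transcript, the pair sums with their scaled values and the fit without 2 libraries were added after seeing the data. Same-numbered libraries deviated together for number 1 only (r of deviations 0.31, -0.41 and -0.15 for numbers 1 to 3). Libraries of different number had higher values, with 0.53 for control replicate 3 and SK4 replicate 2, and 0.34 for control replicate 2 and SK4 replicate 1. With so few libraries per group these values cannot tell whether libraries were paired. No label says that they were, so the numbers were not taken as pairs. With the replicate block 1 gene was called higher and 0 lower. In this balanced design the block leaves the fold changes themselves as they are (-0.039 for NRAS) and bears on their errors only. BRAF is limited by depth and by its length.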
